A study of Homo sapiens with 56 samples.

Results

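SK-CO-1 is an established human colorectal adenocarcinoma cell line that was derived from ascites. Its response to 10 mM 2-methylisocitrate (2-MiCit) was measured by RNA sequencing in 4 libraries of 2-MiCit-treated cells and 4 libraries of control cells given the vehicle, water. These 8 libraries were chosen by their labels and are 8 of the 56 in the series, which covers 7 colorectal cancer lines in 14 groups. All genes were examined. The rule that chose the libraries used no measured value, but the comparison was chosen with earlier results of these data known. According to the labels the cells of both groups are wild-type epithelial cells of colon origin, and the labels name no chemotherapy drug for them. The growth protocol names other lines only, and neither the culture of SK-CO-1 nor the length of its treatment is stated in the labels. Libraries carry the numbers 1 to 4 in each group with no word on separate cultures. The p-values therefore cover only the variation among the libraries, and part or all of that variation may be technical.

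2-MiCit is an intermediate of the methylcitrate cycle, with which bacteria and fungi break down propionate. In that cycle propionyl-CoA and oxaloacetate are joined to methylcitrate, an aconitase-type step turns methylcitrate into 2-MiCit, and a lyase splits 2-MiCit into succinate and pyruvate. Human cells lack this cycle and handle propionate through methylmalonate instead, and 2-MiCit resembles isocitrate, an intermediate of the tricarboxylic acid cycle. The series carries a title on how a metabolite of tumour-associated microbes changes the action of chemotherapy.

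Library totals ran from 32489933 to 39017395 counts in the 2-MiCit group and from 35658804 to 38961219 counts in the control group. Epithelial markers were present, as the label states. Of 14 colon epithelium markers 13 were in the table, all 13 stood above 1 CPM (counts scaled to library size), and their sum ran from 15713.5 to 17018 CPM in 2-MiCit libraries and from 15967.5 to 16638.4 CPM in control libraries. The fibroblast list, of which 4 of 10 members were in the table, summed to between 5.86 and 6.43 CPM with 2-MiCit and between 5.93 and 7.45 CPM in controls. Endothelial markers stayed under 1 CPM in every library. Leukocyte markers were held up by CD68 alone and summed to between 22.4 and 24.0 CPM with 2-MiCit and between 24.0 and 26.7 CPM in controls. Of the neural list 3 genes passed 1 CPM, and the sum ran from 429 to 452 CPM with 2-MiCit and from 470.2 to 486 CPM in controls. The tubulin gene TUBB3, a member of that list, fell and is described below with the other tubulins.

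2-MiCit moved many SK-CO-1 genes by small amounts. Of 14651 genes tested with edgeR's quasi-likelihood F test, 1187 were higher with 2-MiCit and 1589 lower at a Benjamini-Hochberg adjusted p below 0.05, which is 8.1% and 10.8% of the genes tested. All 4 libraries of one group stood apart from all 4 of the other for 10.4% of the genes in the higher direction and 12.5% in the lower. The median size of a called change was 0.15 on the log2 scale, and 2287 of the 2776 called genes (82.4%) changed by less than 1.2-fold. Only 76 higher genes and 7 lower genes passed 1.5-fold, and 18 higher genes and 0 lower genes passed 2-fold. The 7 became 14 without 2-MiCit library 2 or 3 and 4 without control library 4. The median log2 fold change of all tested genes was 0.0054, and the biological coefficient of variation was 0.074.

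The balance between directions rests on how the libraries are scaled. The TMM factors that edgeR uses to correct for composition were between 1.00 and 1.02 in the 2-MiCit libraries and between 0.988 and 0.992 in the control libraries. With those factors 42.8% of the called genes were higher, whereas scaling by library totals alone gave 1739 higher and 992 lower, or 63.7% higher, and shifted the median of all genes to 0.034. With the authors' own factors, which differ from gene to gene within a library, 430 genes were higher and 767 lower. In bulk RNA, fewer cells of a kind and less RNA per cell cannot be told apart. Below, a fold change is 2-MiCit over control, given as its log2 value ± its standard error from the fit, and every adjusted p is from edgeR's quasi-likelihood test with Benjamini-Hochberg adjustment unless another is named. The gene lists were chosen with earlier results of these data known. Their shares therefore describe the members and are not a test of the lists. For lists with 0 members called in a direction, at most 3 members reached an unadjusted p below 0.05 in that direction, apart from the mitochondrially encoded genes, and DESeq2 called at most 1.

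**Figure D1:**
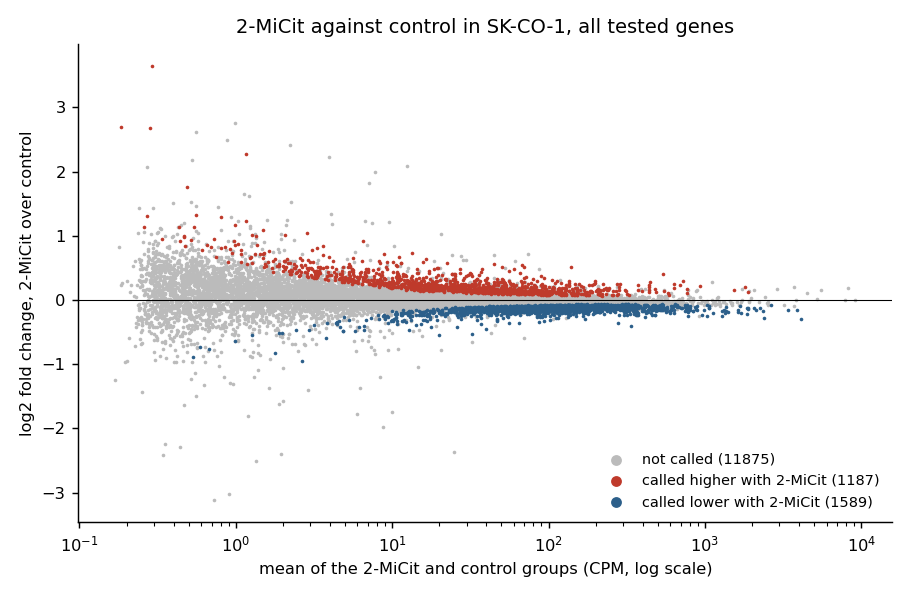
Mean expression (CPM, log scale, horizontal) against the log2 fold change of 2-MiCit over control (vertical) for the 14651 tested genes of SK-CO-1, with called higher and called lower genes in colour. Called genes lie close to the zero line at high expression, and the few called changes past 2-fold are rises of genes expressed at a low level.

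The genes with the largest rises were of mixed function. Named by size among genes with at least 5 CPM, the first was MYH7B, a myosin heavy chain. MYH7B had 9.69, 8.34, 7.82 and 8.12 CPM in the 2-MiCit libraries and 4.6, 4.58, 4.01 and 4.83 CPM in the control libraries (log2 fold change 0.91 ± 0.091, edgeR adjusted p = 1.66e-05). Each treated library stood well above each control library, at 1.88 times the control level. SLC5A1, the sodium-glucose cotransporter SGLT1 of the intestinal brush border, had 16.9, 16.8, 15.8 and 17.6 CPM in the 2-MiCit libraries and 10.4, 9.79, 9.86 and 10.2 CPM in the control libraries (log2 fold change 0.74 ± 0.053, edgeR adjusted p = 1e-06). The membrane mucin gene MUC16, which encodes the CA125 antigen, had 13.5, 10.9, 9.53 and 10.3 CPM in the 2-MiCit libraries and 6.57, 6.45, 7.54 and 6.3 CPM in the control libraries (log2 fold change 0.72 ± 0.10, edgeR adjusted p = 0.000358). Both genes were separated between the groups without overlap, and the treated libraries of SLC5A1 varied little among themselves while those of MUC16 were more spread.

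Several secreted proteins followed. DKK4, a secreted Wnt antagonist, had 14.4, 13.2, 12.4 and 14.4 CPM in the 2-MiCit libraries and 10.3, 8.04, 7.09 and 8.64 CPM in the control libraries (log2 fold change 0.68 ± 0.099, edgeR adjusted p = 0.000668). CCL24, the chemokine eotaxin-2, had 19.7, 19.1, 20.0 and 20.8 CPM in the 2-MiCit libraries and 12.9, 13, 12.4 and 13 CPM in the control libraries (log2 fold change 0.63 ± 0.045, edgeR adjusted p = 1e-06). TNFRSF11B, which encodes the decoy receptor osteoprotegerin, had 26, 26.1, 27.7 and 27.2 CPM in the 2-MiCit libraries and 18.7, 16.5, 17.1 and 19.5 CPM in the control libraries (log2 fold change 0.58 ± 0.052, edgeR adjusted p = 8.87e-06). In all of them the lowest treated library exceeded the highest control library. CST1, a secreted cysteine protease inhibitor, rose (0.60 ± 0.08), and the chloride intracellular channel gene CLIC3 rose (0.65 ± 0.099). Other members of the 14 largest rises were IGFL4, an insulin-like growth factor family member (0.60 ± 0.083), the cell adhesion gene PCDH19 (0.60 ± 0.064), FILIP1L (0.58 ± 0.056), the Golgi tethering subunit COG5 (0.57 ± 0.11) and MLXIPL, which encodes the glucose-sensing transcription factor ChREBP (0.59 ± 0.14). MLXIPL lost its call when any of 4 single libraries was left out.

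The rises with the smallest p-values were smaller but tighter. PARM1, a transmembrane mucin-like gene, had 79.4, 79.3, 79.3 and 82.8 CPM in the 2-MiCit libraries and 55.4, 54.7, 52.7 and 57.2 CPM in the control libraries (log2 fold change 0.54 ± 0.031, edgeR adjusted p = 2.8e-07). APCDD1, an inhibitor of Wnt signalling, had 614, 615, 611 and 635 CPM in the 2-MiCit libraries and 477, 456, 452 and 476 CPM in the control libraries (log2 fold change 0.41 ± 0.025, edgeR adjusted p = 3.07e-07). AKR1C3, an aldo-keto reductase that acts on steroids and prostaglandins, had 62.3, 65.7, 65.1 and 64.3 CPM in the 2-MiCit libraries and 47.5, 46.4, 46.4 and 47.3 CPM in the control libraries (log2 fold change 0.46 ± 0.029, edgeR adjusted p = 4.3e-07). For these genes the gap between the groups was several times the spread within either. MAP2K6, the kinase that activates p38, rose (0.51 ± 0.04), GPR155 (0.57 ± 0.045) and the collagen gene COL6A1 (0.35 ± 0.028).

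**Figure D2:**
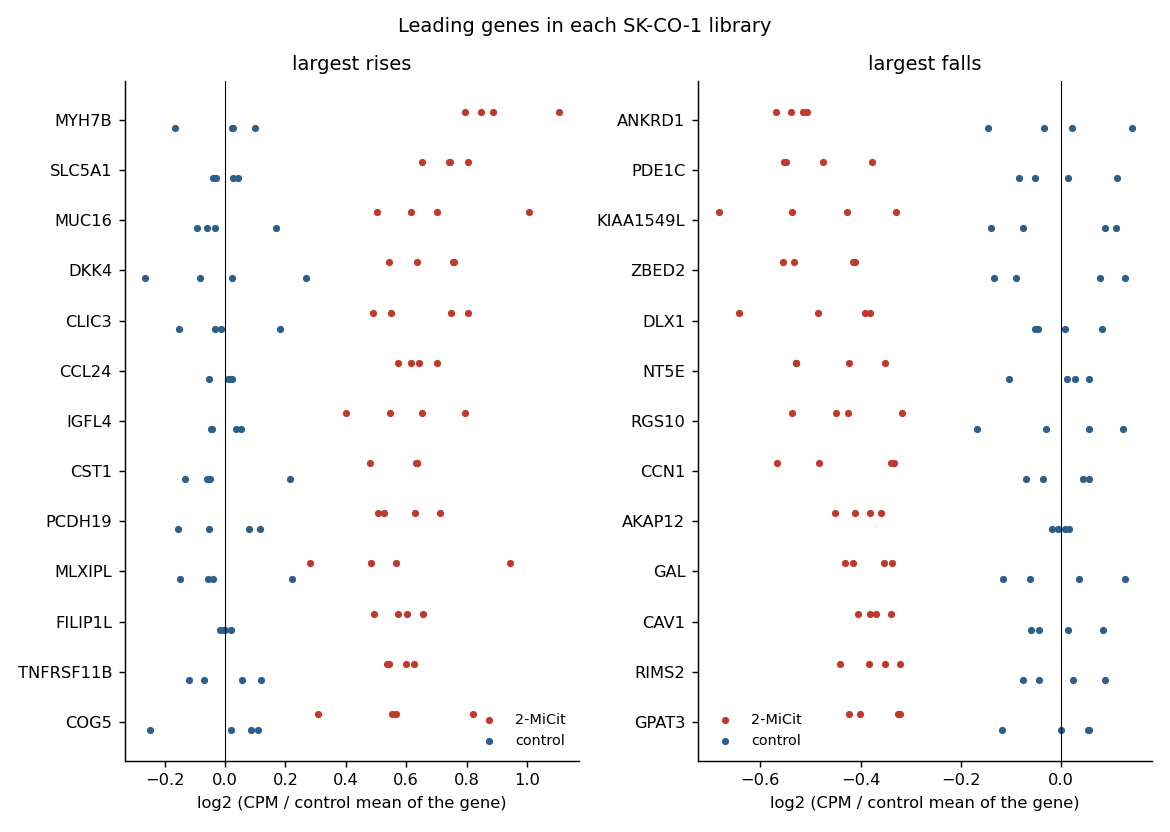
Expression of 13 of the 14 largest rises and 13 of the 14 largest falls in each SK-CO-1 library, as log2 of CPM over the control mean of that gene (horizontal), with the 4 2-MiCit libraries above the 4 control libraries in each row. No treated library overlaps a control library in any row, which is part of the rule that chose the genes, and rises reach further from zero than falls.

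The largest falls included genes of the cell surface and of a transcription program tied to the cytoskeleton. ANKRD1, a nuclear ankyrin-repeat protein and target of the coactivator YAP, had 25.7, 26.3, 26.7 and 26.9 CPM in the 2-MiCit libraries and 38.8, 37.3, 42.1 and 34.5 CPM in the control libraries (log2 fold change -0.53 ± 0.051, edgeR adjusted p = 1.51e-05). NT5E, the ectoenzyme CD73 that makes adenosine from AMP, had 31.8, 36, 31.8 and 34.2 CPM in the 2-MiCit libraries and 46.3, 47.7, 46.9 and 42.7 CPM in the control libraries (log2 fold change -0.46 ± 0.046, edgeR adjusted p = 1.86e-05). Control libraries were higher than treated libraries for both, and the treated libraries of ANKRD1 were the more alike. AKAP12, a scaffold for protein kinase A, had 290.0, 301, 282 and 296 CPM in the 2-MiCit libraries and 384, 389.7, 388 and 381 CPM in the control libraries (log2 fold change -0.40 ± 0.024, edgeR adjusted p = 2.8e-07), the smallest adjusted p among the falls.

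CAV1, the main coat protein of caveolae, had 31.4, 32.2, 32 and 32.9 CPM in the 2-MiCit libraries and 42.1, 40.4, 44.1 and 40.0 CPM in the control libraries (log2 fold change -0.37 ± 0.038, edgeR adjusted p = 1.87e-05). AXL, a receptor tyrosine kinase, had 75.9, 76.6, 76.4 and 76.5 CPM in the 2-MiCit libraries and 95.6, 95.3, 99 and 97 CPM in the control libraries (log2 fold change -0.34 ± 0.024, edgeR adjusted p = 1e-06). These surface genes again showed no overlap between the groups, and the treated libraries of AXL differed by less than 1 CPM from each other. ANXA1, a phospholipid-binding annexin, fell (-0.23 ± 0.023). AXL and ANXA1 are named for their small p-values and are not among the 14 largest falls. Other members of the 14 largest falls were ZBED2 (-0.48 ± 0.067), the homeobox gene DLX1 (-0.47 ± 0.082), the calmodulin-dependent phosphodiesterase PDE1C (-0.49 ± 0.088), KIAA1549L (-0.49 ± 0.096), the G-protein regulator RGS10 (-0.43 ± 0.095), the neuropeptide gene GAL (-0.38 ± 0.059), the vesicle-release gene RIMS2 (-0.37 ± 0.051) and the acyltransferase GPAT3 (-0.37 ± 0.065). In 1 fit that shares its dispersion with HT29 and SW1417, the calls of PDE1C, KIAA1549L, DLX1, RIMS2 and ANXA1 were lost, with the authors' factors the call of DLX1 was lost too, and the sign of PDE1C turned.

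YAP and TAZ are coactivators that enter the nucleus when cells spread or are under tension and act through TEAD factors, TGF-beta acts through SMAD factors, and both raise matrix and adhesion genes in carcinoma cells. Of 21 tested members of a list of mesenchymal, TGF-beta and YAP targets, 11 fell and 1 rose, which is 52.4% and 4.76% of the list against 10.8% and 8.1% of all tested genes. The list's median log2 fold change was -0.20, against 0.0054 for all tested genes. Besides ANKRD1, the matricellular genes CCN1 and CCN2, both YAP targets, fell. CCN1 had 20.2, 21.4, 23.6 and 23.7 CPM in the 2-MiCit libraries and 31.1, 29.2, 30.8 and 28.5 CPM in the control libraries (log2 fold change -0.43 ± 0.054, edgeR adjusted p = 0.000119). CCN2 had 52.1, 58.2, 56.5 and 53.7 CPM in the 2-MiCit libraries and 65.1, 64.4, 64 and 61.5 CPM in the control libraries (log2 fold change -0.21 ± 0.036, edgeR adjusted p = 0.00112). Neither gene overlapped between groups, and the fall of CCN1 was the larger. AMOTL2, an angiomotin that binds YAP and is itself a YAP target, had 176, 179.9, 179 and 177 CPM in the 2-MiCit libraries and 208, 206, 211 and 207 CPM in the control libraries (log2 fold change -0.22 ± 0.021, edgeR adjusted p = 9.39e-06).

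THBS1, the matrix glycoprotein thrombospondin-1, had 100.2, 101, 104 and 109 CPM in the 2-MiCit libraries and 121, 129, 124 and 128 CPM in the control libraries (log2 fold change -0.28 ± 0.03, edgeR adjusted p = 4.01e-05). TGFBI, a matrix protein named for its induction by TGF-beta, had 835, 881, 912 and 887 CPM in the 2-MiCit libraries and 1033, 1048, 1049 and 985 CPM in the control libraries (log2 fold change -0.23 ± 0.03, edgeR adjusted p = 0.000171). These abundant genes were lower in each treated library than in each control library. The transcription factor SNAI2 (-0.30 ± 0.068), the intermediate filament gene VIM (-0.39 ± 0.12, at a mean of 2.75 ± 0.14 CPM in 2-MiCit cells and 3.6 ± 0.507 CPM in control cells) and fibronectin FN1 (-0.20 ± 0.056) also fell. ITGB6, the beta subunit of the integrin that activates latent TGF-beta, was the member that rose (0.17 ± 0.048), and it lost its call with the authors' factors and without any of 4 single libraries. The call of VIM was lost in 11 of the 18 alternatives, DESeq2 and 6 single libraries among them, and that of FN1 in 8, 6 of them single libraries. That of SNAI2 was lost in the fit over the 3 lines and with the authors' factors. In the fit over the 3 lines 7 members of the list were called lower. The ligand genes TGFB1 and INHBA and the inhibitor SMAD7 did not pass the test, with log2 fold changes of -0.13, -0.19 and -0.076.

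The promoters of ANKRD1 and CCN2 are shown because both genes fell and both carry the letters that TEAD factors recognise. The windows run from 250 bases before to 50 bases after the annotated start, were taken from RefSeq on GRCh38.p14, and are written 5′ to 3′ along the gene's strand, with matches to GGAATG on either strand in capitals. ANKRD1 lies on the minus strand at chr10:90921038-90921337 and CCN2 on the minus strand at chr6:131951323-131951622.
ANKRD1: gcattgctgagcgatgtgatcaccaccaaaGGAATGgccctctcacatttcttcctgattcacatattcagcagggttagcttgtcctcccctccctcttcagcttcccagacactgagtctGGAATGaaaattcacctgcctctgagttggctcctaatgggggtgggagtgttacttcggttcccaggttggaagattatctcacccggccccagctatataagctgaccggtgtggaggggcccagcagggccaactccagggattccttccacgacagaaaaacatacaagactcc
CCN2: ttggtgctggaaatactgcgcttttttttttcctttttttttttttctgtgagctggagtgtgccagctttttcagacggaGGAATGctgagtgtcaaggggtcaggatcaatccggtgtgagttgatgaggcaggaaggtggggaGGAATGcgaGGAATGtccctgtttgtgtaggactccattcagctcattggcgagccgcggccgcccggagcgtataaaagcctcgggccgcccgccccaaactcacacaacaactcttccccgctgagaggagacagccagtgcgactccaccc
The ANKRD1 window held 2 matches and the CCN2 window 3. Among 15 members of the list with a RefSeq promoter, 5 windows held a match (33.3%), against 10.9% of the windows of all tested genes and 14% of all 27305 windows. Besides GGAATG, the windows were searched on both strands for TGANTCA, the letters of AP-1, and for the motifs given with the promoters of other lists. No match printed in capitals overlapped a match to another of these motifs. The ANKRD1 window also held 1 AP-1 match. A match is a description of the letters and not evidence of binding.

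The AP-1 and immediate early genes, which ERK and other kinases switch on within minutes of a stimulus, were mostly lower where they changed. Of 24 tested members 8 fell and 2 rose, 33.3% and 8.33% of the list, against 10.8% and 8.1% of all tested genes. Of 17 ERK feedback and ligand genes 7 fell and 2 rose, 41.2% and 11.8%. The shares called higher thus lay near that of all genes. FOSL1, the AP-1 subunit FRA-1, had 236, 237, 252 and 245 CPM in the 2-MiCit libraries and 310.1, 303, 317 and 309.9 CPM in the control libraries (log2 fold change -0.35 ± 0.025, edgeR adjusted p = 1e-06). JUN had 49.5, 50.6, 50.3 and 52.8 CPM in the 2-MiCit libraries and 58.6, 54.6, 61 and 58.7 CPM in the control libraries (log2 fold change -0.20 ± 0.036, edgeR adjusted p = 0.0017). FOS had 32.9, 33.7, 35.4 and 36.4 CPM in the 2-MiCit libraries and 39.3, 38.7, 39 and 38.6 CPM in the control libraries (log2 fold change -0.17 ± 0.037, edgeR adjusted p = 0.00583). All of these AP-1 subunits were lower in each treated library than in each control. EGR1 fell (-0.18 ± 0.033), whereas EGR2, a related zinc finger gene, rose (0.39 ± 0.062). FOSB, JUNB and FOSL2 did not pass the test, with log2 fold changes of -0.18, -0.054 and -0.032.

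Among ligands of the EGF receptor in the ERK list, 2 fell, and HBEGF did not pass (-0.11). EREG, epiregulin, had 50.2, 51.7, 45.8 and 51.8 CPM in the 2-MiCit libraries and 58, 59, 58.4 and 58.9 CPM in the control libraries (log2 fold change -0.23 ± 0.037, edgeR adjusted p = 0.000668). AREG, amphiregulin, had 86.3, 89.4, 88.7 and 87.7 CPM in the 2-MiCit libraries and 97.5, 103, 101 and 99.7 CPM in the control libraries (log2 fold change -0.19 ± 0.026, edgeR adjusted p = 0.000191). The groups did not overlap for either ligand. DUSP4, a phosphatase that switches ERK off, fell (-0.14 ± 0.025), and the receptor gene EPHA2 (-0.15 ± 0.022). ETV5, an ERK-induced transcription factor, rose (0.097 ± 0.024), and the inhibitor SPRY1 (0.17 ± 0.053). The calls of FOS, EGR1, EGR2, EREG, AREG, CCN2 and ETV5 were lost in the fit that shares its dispersion with HT29 and SW1417, in which 5 AP-1 and 3 ERK members were called lower, and that of SPRY1 when any of 5 single libraries was left out. With the authors' factors the call of FOS was lost and the sign of ETV5 turned.

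**Figure D3:**
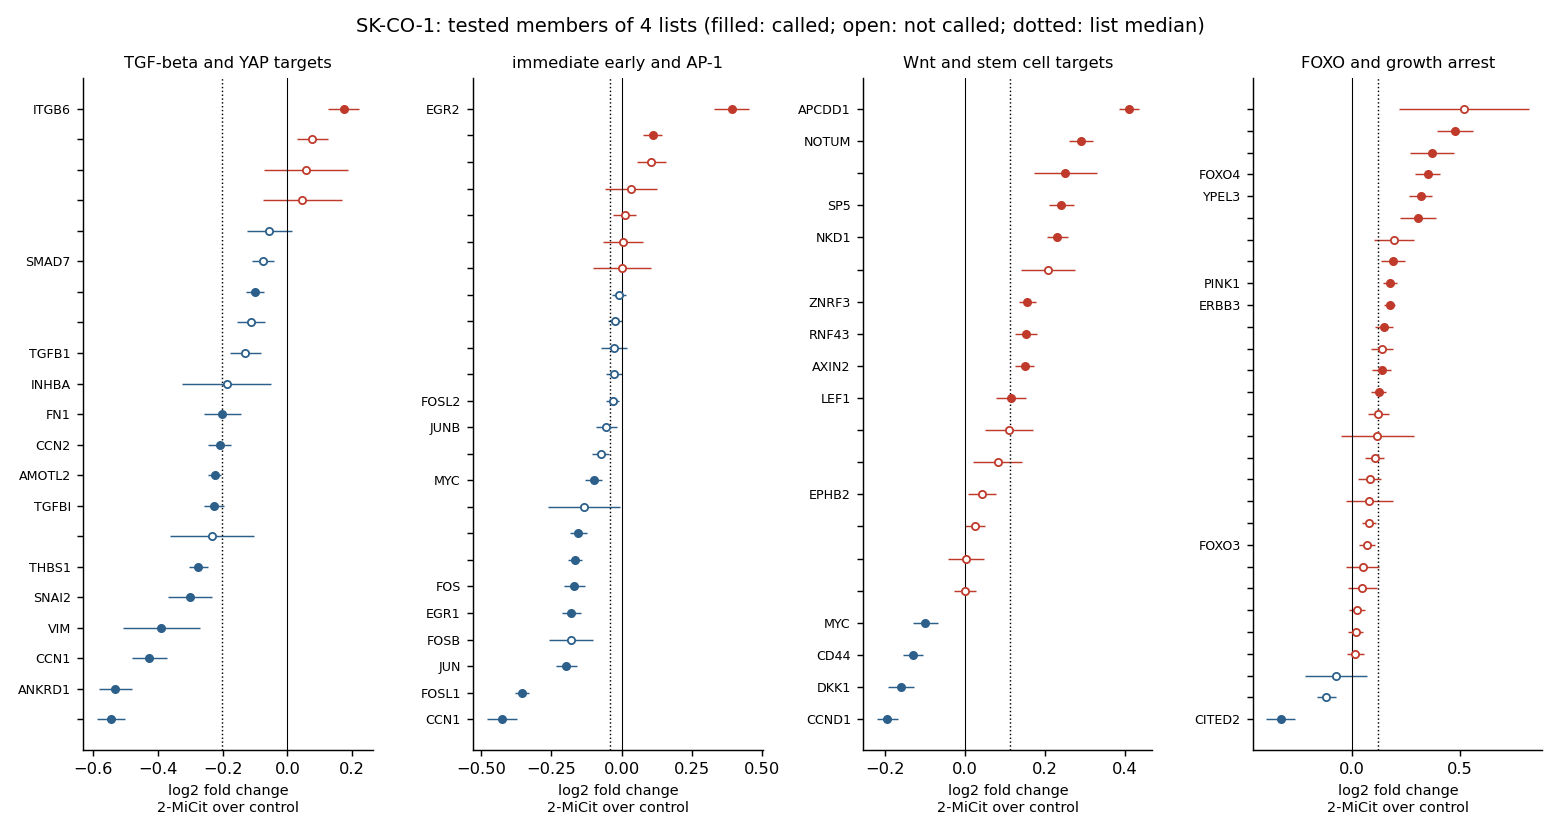
Log2 fold change of 2-MiCit over control in SK-CO-1 (horizontal, bars are 1 standard error) for every tested member of 4 gene lists, with filled points for called genes, open points for genes that did not pass the test, and names beside the genes given in the text. The YAP list and the AP-1 list lie mostly left of zero, at medians of -0.20 and -0.043, and the Wnt and FOXO lists mostly right of it, at medians of 0.11 and 0.12.

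MYC drives ribosome production, and the ribosome is assembled in the nucleolus by a large set of processing factors. Of 33 tested members of the MYC and ribosome biogenesis list, 25 fell and 0 rose (75.8% against 10.8% of all tested genes called lower), with a median of -0.15. All 33 had log2 fold changes below zero. MYBBP1A, a nucleolar repressor and processing factor, had 49.5, 47, 48.6 and 50.1 CPM in the 2-MiCit libraries and 63.9, 60.8, 62.6 and 63 CPM in the control libraries (log2 fold change -0.36 ± 0.031, edgeR adjusted p = 5.25e-06). NOP56, a core protein of box C/D RNA-protein complexes, had 124, 121, 129 and 126 CPM in the 2-MiCit libraries and 141, 143, 147 and 144 CPM in the control libraries (log2 fold change -0.20 ± 0.025, edgeR adjusted p = 8.9e-05). DDX21, a nucleolar RNA helicase, had 269, 275, 269.7 and 271 CPM in the 2-MiCit libraries and 299, 304, 304 and 299 CPM in the control libraries (log2 fold change -0.15 ± 0.021, edgeR adjusted p = 0.000182). The groups were apart for each of these nucleolar genes. WDR43, of the small subunit processome, fell (-0.18 ± 0.023). MYC itself averaged 235 ± 9.67 CPM in 2-MiCit cells and 252 ± 7.86 CPM in control cells (log2 fold change -0.099 ± 0.031, edgeR adjusted p = 0.0348). The MYC ranges overlapped, and the call was lost with library totals alone, with the authors' factors and without any of 5 single libraries.

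Translation factors and the enzymes that charge tRNAs moved the same way. Of 17 initiation and elongation factors 11 fell and 0 rose, of 20 cytosolic aminoacyl-tRNA synthetases 11 fell and 1 rose, and of 32 cytosolic ribosomal proteins 7 fell and 0 rose. These are 64.7%, 55% and 21.9% of the lists, against 10.8% of all tested genes called lower. The RNA helicase EIF4A1 averaged 789 ± 17.8 CPM in 2-MiCit cells and 891 ± 4.92 CPM in control cells (log2 fold change -0.17 ± 0.024, edgeR adjusted p = 0.000187). The phenylalanyl-tRNA synthetase subunit FARSB averaged 92.5 ± 3.4 CPM in 2-MiCit cells and 103 ± 0.692 CPM in control cells (log2 fold change -0.15 ± 0.028, edgeR adjusted p = 0.00167), and the lysyl and tyrosyl enzymes KARS1 and YARS1 fell (-0.14 ± 0.022 and -0.15 ± 0.026). QARS1, the glutaminyl enzyme, was the synthetase called higher (0.071 ± 0.022), and that call was lost in 7 alternatives. The ribosomal protein genes as a list stood at a median of only -0.047, and the number called lower was 2 with the authors' factors, 3 with library totals alone and between 2 and 12 without single libraries. Initiation and elongation factors called lower were 6 with the authors' factors and 7 with totals alone, and synthetases were 6 with totals alone and 7 in the fit over the 3 lines.

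Polyamine synthesis, whose first enzyme gene ODC1 is a MYC target, fell with 5 of 13 genes, and 1 gene rose, 38.5% and 7.69% against 10.8% and 8.1% of all tested genes. SRM, spermidine synthase, had 88, 87.4, 96.5 and 92.7 CPM in the 2-MiCit libraries and 109.7, 110.0, 118 and 113 CPM in the control libraries (log2 fold change -0.31 ± 0.034, edgeR adjusted p = 4.69e-05). ODC1, ornithine decarboxylase, had 436, 427, 457 and 448 CPM in the 2-MiCit libraries and 519, 512, 522 and 532 CPM in the control libraries (log2 fold change -0.24 ± 0.025, edgeR adjusted p = 2.85e-05). Treated libraries were below control libraries for each. SMS, spermine synthase, fell (-0.16 ± 0.024) and AMD1, which makes the aminopropyl donor (-0.15 ± 0.026). SAT1, the acetyltransferase that breaks polyamines down, was the member called higher (0.071 ± 0.022), but the call was lost in 8 of the alternatives.

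The promoters of MYBBP1A and SRM are shown because they fell most in these lists and hold the letters CACGTG, the E-box bound by MYC with MAX and by related factors. They follow the same layout, with each CACGTG in capitals; it reads the same on both strands. MYBBP1A lies on the minus strand at chr17:4555335-4555634 and SRM on the minus strand at chr1:11059969-11060268.
MYBBP1A: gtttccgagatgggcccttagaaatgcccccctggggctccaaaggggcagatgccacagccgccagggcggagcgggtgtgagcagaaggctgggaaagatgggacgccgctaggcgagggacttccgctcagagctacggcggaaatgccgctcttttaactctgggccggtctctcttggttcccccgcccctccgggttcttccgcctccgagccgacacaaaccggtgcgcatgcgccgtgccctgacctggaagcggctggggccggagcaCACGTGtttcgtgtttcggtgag
SRM: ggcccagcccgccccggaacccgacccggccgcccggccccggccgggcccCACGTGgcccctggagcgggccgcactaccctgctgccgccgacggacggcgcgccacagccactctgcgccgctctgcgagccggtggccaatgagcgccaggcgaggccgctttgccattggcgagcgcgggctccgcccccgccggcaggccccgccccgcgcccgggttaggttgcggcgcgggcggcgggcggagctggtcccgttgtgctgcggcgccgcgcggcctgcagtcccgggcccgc
Each window held 1 match. Of 27 ribosome biogenesis members with a RefSeq promoter, 9 windows held CACGTG (33.3%), against 9.88% of the windows of all tested genes and 7.43% of all windows.

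Protein folding and degradation genes were mostly lower. All 8 subunit genes of CCT, the ring chaperonin that folds actin and tubulin, fell, with a median of -0.16. Of 18 cytosolic heat shock chaperones and co-chaperones 15 fell and 0 rose (83.3%), with a median of -0.13, and of 30 proteasome subunits 21 fell and 0 rose (70%), with a median of -0.099. The subunit CCT4 had 396, 412, 410.2 and 406 CPM in the 2-MiCit libraries and 455, 471, 454 and 439 CPM in the control libraries (log2 fold change -0.16 ± 0.025, edgeR adjusted p = 0.000449). CCT8 had 287, 297, 297 and 283 CPM in the 2-MiCit libraries and 325, 342, 322 and 327 CPM in the control libraries (log2 fold change -0.18 ± 0.025, edgeR adjusted p = 0.000274). The libraries of the groups did not overlap for either subunit. HSP90AB1, the constitutive HSP90, averaged 1596 ± 60.5 CPM in 2-MiCit cells and 1828 ± 25.3 CPM in control cells (log2 fold change -0.20 ± 0.029, edgeR adjusted p = 0.00036). The mitochondrial chaperonin HSPD1 fell (-0.17 ± 0.025), PTGES3, the HSP90 co-chaperone p23 (-0.20 ± 0.028), and the proteasome subunit PSMB2 (-0.21 ± 0.035). The 3 heat shock genes that did not pass had log2 fold changes below zero too. The endoplasmic reticulum list differed: of 20 members 2 fell and 1 rose, 10% and 5% against 10.8% and 8.1% of all tested genes. HSPA5, the main lumenal chaperone BiP, did not pass at a log2 fold change of -0.025. In the fit over the 3 lines 7 heat shock and 13 proteasome genes were called lower, and with the authors' factors 12 proteasome genes.

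Actin, tubulin and their partners fell in 15 of 25 cases and rose in 0 (60% lower against 10.8% of all tested genes), with a median of -0.15. ACTB, the beta-actin gene often used as a constant standard, had 3458, 3585, 3907 and 3749.9 CPM in the 2-MiCit libraries and 4502, 4395, 4757 and 4396 CPM in the control libraries (log2 fold change -0.30 ± 0.039, edgeR adjusted p = 0.000152). TUBB3 averaged 292 ± 7.61 CPM in 2-MiCit cells and 344 ± 5.1 CPM in control cells (log2 fold change -0.24 ± 0.024, edgeR adjusted p = 1.8e-05). TUBA1B averaged 1711 ± 31.9 CPM in 2-MiCit cells and 1997 ± 32.5 CPM in control cells (log2 fold change -0.22 ± 0.025, edgeR adjusted p = 5.36e-05). The actin and tubulin genes are near-identical within their families, so that reads can be shared among copies and single members are uncertain. ACTN1, an alpha-actinin that bundles actin, did not pass the test, with a log2 fold change of 0.028.

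**Figure D4:**
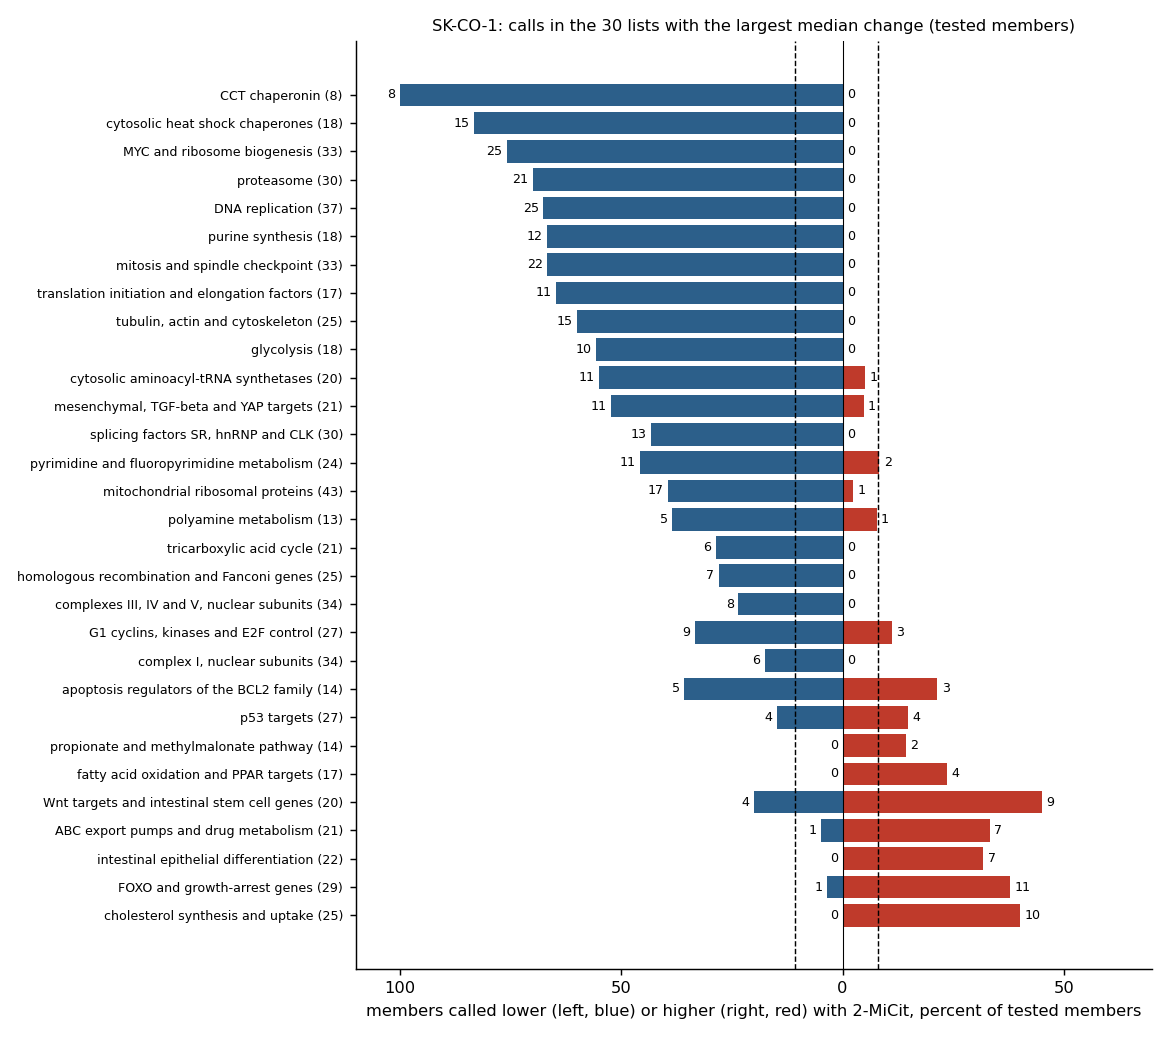
Share of the tested members of the 30 gene lists with the largest median change (mitochondrially encoded genes left out) that were called lower (left of zero) or higher (right of zero) with 2-MiCit in SK-CO-1, in percent, with the numbers of called and tested members. Dashed lines mark the shares among all tested genes, 10.8% lower and 8.1% higher. Growth, folding and replication lists extend far past the line on the left, and Wnt, FOXO and cholesterol lists past the line on the right.

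Genes of DNA replication fell together. Of 37 tested members 25 fell and 0 rose (67.6% lower against 10.8% of all tested genes), with a median of -0.15. MCM10, which helps to fire the replicative helicase, had 43.8, 46.8, 48 and 46.4 CPM in the 2-MiCit libraries and 56.3, 58.1, 54.7 and 55.6 CPM in the control libraries (log2 fold change -0.28 ± 0.034, edgeR adjusted p = 9.89e-05). CDC6, which loads the helicase onto origins, had 119.5, 123, 119 and 119 CPM in the 2-MiCit libraries and 136, 139, 135 and 135 CPM in the control libraries (log2 fold change -0.18 ± 0.022, edgeR adjusted p = 0.0001). RFC5, a subunit of the clamp loader, had 78, 77.5, 79.1 and 81.1 CPM in the 2-MiCit libraries and 90.4, 89.8, 89.9 and 91.6 CPM in the control libraries (log2 fold change -0.20 ± 0.025, edgeR adjusted p = 0.000134). Treated libraries were lower than controls throughout. POLD2, a subunit of DNA polymerase delta, fell (-0.18 ± 0.024). The call of MCM10 was lost with the authors' factors. Replication genes called lower numbered 10 in the fit over the 3 lines and 15 with the authors' factors.

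Mitosis and spindle genes fell in 22 of 33 cases and rose in 0 (66.7% lower against 10.8% of all tested genes), with a median of -0.11. UBE2C, the ubiquitin-conjugating enzyme of the anaphase-promoting complex, had 351, 377, 391 and 373 CPM in the 2-MiCit libraries and 449, 445, 461 and 445 CPM in the control libraries (log2 fold change -0.27 ± 0.029, edgeR adjusted p = 3.58e-05). CDC20, an activator of that complex, had 203, 206, 219 and 208 CPM in the 2-MiCit libraries and 243, 238, 255 and 239.9 CPM in the control libraries (log2 fold change -0.22 ± 0.028, edgeR adjusted p = 0.000134). Both were lower in every treated library. The mitotic kinase PLK1 fell (-0.19 ± 0.029) and the spindle factor TPX2 (-0.16 ± 0.023). MKI67, the usual proliferation marker, was not called: it had 607, 596, 552 and 577 CPM in the 2-MiCit libraries and 577, 589.8, 607 and 611 CPM in the control libraries (log2 fold change -0.033 ± 0.03, edgeR adjusted p = 0.502). The MKI67 ranges overlapped. Of the mitosis list 13 members were called lower with the authors' factors and 14 with library totals alone.

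Genes that control G1 were called in both directions, mostly lower. Of 27 G1 and E2F genes 9 fell and 3 rose, 33.3% and 11.1% against 10.8% and 8.1% of all tested genes. The share called higher thus lay near that of all genes. Cyclin D1, CCND1, averaged 1521 ± 41.1 CPM in 2-MiCit cells and 1740.5 ± 21.7 CPM in control cells (log2 fold change -0.19 ± 0.026, edgeR adjusted p = 0.000192), and CDK2 and the phosphatase CDC25A fell (-0.19 ± 0.031 and -0.17 ± 0.025). Members that rose included RBL2, the p130 pocket protein (0.19 ± 0.029) and the antiproliferative BTG2 (0.43 ± 0.087). CDKN1A, the p21 inhibitor, had a log2 fold change of -0.053 and did not pass. Of 25 homologous recombination and Fanconi genes 7 fell (28%) and 0 rose, among them the nuclease EXO1 (-0.20 ± 0.036) and FANCD2 (-0.12 ± 0.029). With the authors' factors the call of FANCD2 was lost, and 4 G1 and 3 recombination and Fanconi genes were called lower. In the fit over the 3 lines these numbers were 5 and 4.

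Nucleotide synthesis is of interest here because fluoropyrimidine drugs act through it. Of 18 purine synthesis genes 12 fell and 0 rose (66.7%), with a median of -0.14, and of 24 genes of pyrimidine and fluoropyrimidine metabolism 11 fell and 2 rose (45.8% and 8.33%). Of all tested genes 10.8% were called lower and 8.1% higher. The share of pyrimidine genes called higher thus lay near that of all genes. TYMS, thymidylate synthase, the target of fluorouracil, had 109, 109, 116 and 109 CPM in the 2-MiCit libraries and 127, 124, 125 and 126 CPM in the control libraries (log2 fold change -0.18 ± 0.025, edgeR adjusted p = 0.000262). RRM2, the small subunit of ribonucleotide reductase, had 418, 422, 434 and 419.6 CPM in the 2-MiCit libraries and 496, 510.0, 495 and 487 CPM in the control libraries (log2 fold change -0.23 ± 0.023, edgeR adjusted p = 1.66e-05). UPP1, uridine phosphorylase, which can activate fluorouracil, had 23.8, 22.7, 25.5 and 26.2 CPM in the 2-MiCit libraries and 29.4, 30.6, 30.8 and 30.2 CPM in the control libraries (log2 fold change -0.30 ± 0.046, edgeR adjusted p = 0.000457). In each case the groups were separate. The calls of TYMS and UPP1 were lost in the fit that shares its dispersion with HT29 and SW1417, in which 6 purine and 7 pyrimidine genes were called lower. Under the authors' factors 7 of each were.

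The salvage kinase TK1 fell (-0.20 ± 0.039), CTP synthase CTPS1 (-0.21 ± 0.034), RRM1 (-0.18 ± 0.027), NME1 (-0.16 ± 0.025) and UCK2 (-0.11 ± 0.026). DHODH and DUT, the enzyme that clears dUTP, were also called lower (-0.19 ± 0.055 and -0.081 ± 0.024), but both calls were lost with the authors' factors and when single libraries were left out. GGH, which shortens folate polyglutamates, had 159, 166, 162 and 161 CPM in the 2-MiCit libraries and 144, 152, 138 and 136 CPM in the control libraries (log2 fold change 0.19 ± 0.031, edgeR adjusted p = 0.000763) and rose without overlap. TK2, the mitochondrial kinase, rose (0.18 ± 0.052), with a call lost without any of 3 single libraries, in the fit over the 3 lines and with the authors' factors. The members that did not pass were CAD (-0.04), UMPS (-0.067), CTPS2 (-0.066), DTYMK (-0.077), DCTD (-0.074), FPGS (-0.081), SAMHD1 (-0.065), SLC29A1 (-0.013), TYMP (0.015), CDA (0.053) and UCK1 (0.10), each given as a log2 fold change. Among purine genes, the salvage enzyme HPRT1 fell (-0.22 ± 0.036), PAICS of the main route to IMP (-0.16 ± 0.022) and GMPS, which makes GMP (-0.15 ± 0.022). The call of HPRT1 was lost in the fit over the 3 lines and that of RRM1 with the authors' factors.

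Glycolysis genes fell in 10 of 18 cases and rose in 0 (55.6% lower against 10.8% of all tested genes), with a median of -0.12. PFKP, a phosphofructokinase isoform, had 38.3, 41.9, 41.8 and 44 CPM in the 2-MiCit libraries and 54.2, 51.8, 54.2 and 48.9 CPM in the control libraries (log2 fold change -0.33 ± 0.044, edgeR adjusted p = 0.000169). ENO1, enolase, had 1117, 1134, 1234 and 1183 CPM in the 2-MiCit libraries and 1393, 1393, 1414 and 1369 CPM in the control libraries (log2 fold change -0.25 ± 0.031, edgeR adjusted p = 8.14e-05). Neither enzyme overlapped between the groups. PGAM1 and PFKM fell (-0.15 ± 0.023 and -0.12 ± 0.026). The first steps, the glucose carrier SLC2A1 and hexokinases HK1 and HK2, did not pass the test (-0.0069, -0.059 and -0.045). The calls of both phosphofructokinases named, PFKP and PFKM, were lost with the authors' factors, with which 6 members were called lower.

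Enzymes and carriers of citrate and isocitrate, the natural relatives of 2-MiCit, were called in both directions. Of 11 tested genes 3 fell and 2 rose, 27.3% and 18.2% against 10.8% and 8.1% of all tested genes. CS, citrate synthase, had 281, 286, 301 and 299 CPM in the 2-MiCit libraries and 323, 333, 335 and 328 CPM in the control libraries (log2 fold change -0.18 ± 0.026, edgeR adjusted p = 0.000323). IDH1, the cytosolic isocitrate dehydrogenase, had 111, 115, 113 and 107 CPM in the 2-MiCit libraries and 96.6, 102, 96.9 and 99.6 CPM in the control libraries (log2 fold change 0.17 ± 0.029, edgeR adjusted p = 0.000784). The groups did not overlap, with CS lower and IDH1 higher in treated cells. SLC13A5, the plasma membrane citrate carrier NaCT, had 0.999, 0.481, 0.491 and 0.423 CPM in the 2-MiCit libraries and 0.182, 0.198, 0.458 and 0.236 CPM in the control libraries (log2 fold change 1.13 ± 0.37, edgeR adjusted p = 0.0448). It was called higher at a very low level, with treated library 1 above all others and with overlapping groups, and the call was lost in 10 alternatives. ACLY, which splits citrate in the cytosol, was called lower (-0.079 ± 0.024), a call lost in 8 alternatives. ACO1, IDH2, IDH3A, the citrate carrier SLC25A1, SLC25A10 and SLC25A11 did not pass, with log2 fold changes of -0.05, 0.0035, -0.082, -0.058, -0.012 and -0.015.

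Across the tricarboxylic acid cycle and the pyruvate dehydrogenase genes 6 of 21 fell and 0 rose, 28.6% against 10.8% of all tested genes called lower. The falls included malate dehydrogenase MDH2 (-0.14 ± 0.031) and the succinate dehydrogenase subunit SDHD (-0.12 ± 0.025). In the propionate and methylmalonate pathway, by which human cells use propionate, 2 of 14 rose and 0 fell. That is 14.3% against 8.1% of all tested genes called higher. The propionyl-CoA carboxylase genes PCCA and PCCB and the mutase MMUT did not pass, at log2 fold changes of 0.083, -0.01 and 0.099. ALDH6A1, methylmalonate semialdehyde dehydrogenase, and BCKDHA of branched-chain amino acid breakdown were called higher (0.21 ± 0.062 and 0.12 ± 0.036), both with calls that the authors' factors and single libraries ended. Of the cycle 3 genes were called lower with the authors' factors.

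Of the respiratory chain, 6 of 34 nuclear complex I genes and 8 of 34 genes of complexes III, IV and V fell and 0 rose in either, 17.6% and 23.5% against 10.8% of all tested genes called lower. Without single libraries the numbers called lower lay between 2 and 13 and between 2 and 14, and with the authors' factors 2 members of each list were called lower. The 13 mitochondrially encoded genes were not called by edgeR in either direction, at a median of 0.15, the opposite side of zero from the nuclear genes (medians -0.058 and -0.064). MT-CO1 and MT-ND4 had log2 fold changes of 0.18 ± 0.071 and 0.16 ± 0.07, and 6 of the 13 were higher at an unadjusted p below 0.05. DESeq2 called 2 of them higher, and edgeR called 6 higher without 2-MiCit library 3. With a replicate block edgeR called 10 of them higher. Mitochondrial ribosomal protein genes fell in 17 of 43 cases and rose in 1 (39.5% and 2.33%). The falls included MRPL20 (-0.22 ± 0.034) and MRPS23 (-0.17 ± 0.029). Of the mitochondrial ribosomal list 7 genes were called lower with the authors' factors and 9 with library totals alone.

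Cholesterol genes were higher where they passed the test. Of 25 genes of cholesterol synthesis and uptake, which the transcription factor SREBP2 controls, 10 rose and 0 fell (40% against 8.1% of all tested genes called higher), with a median of 0.092. The rises were small. SREBF2, which encodes SREBP2, rose (0.16 ± 0.027), and the desaturase SC5D (0.16 ± 0.034). With the authors' factors and in the fit over the 3 lines 1 member was called higher, the call of SREBF2 being lost with the authors' factors and that of SC5D in the fit over the 3 lines, and leaving out single libraries gave between 3 and 9. ACSS2, which makes acetyl-CoA from acetate, had 69.7, 75.2, 76.3 and 74.9 CPM in the 2-MiCit libraries and 63.4, 62.4, 59.4 and 62.3 CPM in the control libraries (log2 fold change 0.26 ± 0.034, edgeR adjusted p = 0.00015). Its groups were apart, and its call too was lost with the authors' factors. Of 17 fatty acid oxidation and PPAR genes 4 rose and 0 fell, 23.5% against 8.1% of all tested genes called higher. The rises included CPT1A, the entry step into mitochondria (0.093 ± 0.024), and ACAA2 (0.15 ± 0.027). Of this list 1 member was called higher with the authors' factors and 1 without 2-MiCit library 4, and the call of CPT1A was lost in both and in the fit over the 3 lines.

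Wnt signalling through beta-catenin is active in most colorectal cancers and switches on its own inhibitors. Of 20 tested Wnt target and stem cell genes 9 rose and 4 fell, with a median of 0.11. These are 45% and 20% of the list, against 8.1% and 10.8% of all tested genes. The rises included feedback inhibitors. NOTUM, a secreted enzyme that inactivates Wnt ligands, had 784, 769, 829.6 and 825 CPM in the 2-MiCit libraries and 665, 627, 659 and 673 CPM in the control libraries (log2 fold change 0.29 ± 0.03, edgeR adjusted p = 2.52e-05). NKD1, an intracellular antagonist of Dishevelled, had 773, 761, 728 and 739.8 CPM in the 2-MiCit libraries and 658, 633, 628 and 640.2 CPM in the control libraries (log2 fold change 0.23 ± 0.026, edgeR adjusted p = 4.45e-05). AXIN2, a scaffold of the destruction complex, had 462, 462, 449.6 and 475 CPM in the 2-MiCit libraries and 423, 409.6, 409.5 and 425 CPM in the control libraries (log2 fold change 0.15 ± 0.024, edgeR adjusted p = 0.000673). Together with APCDD1 and DKK4 above, these inhibitors were higher in every treated library than in any control.

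The ubiquitin ligases ZNRF3 and RNF43, which remove Wnt receptors, rose (0.16 ± 0.022 and 0.15 ± 0.027), and the transcription factors SP5 and LEF1 (0.24 ± 0.031 and 0.12 ± 0.037). The 4 members that fell were CCND1, MYC, CD44 (-0.13 ± 0.024) and DKK1 (-0.16 ± 0.033), the last itself a secreted Wnt inhibitor. The call of LEF1 was lost in 7 of the 18 alternatives, 5 of them single libraries, and that of DKK1 in the fit over the 3 lines and with the authors' factors. EPHB2, a receptor of the crypt base, did not pass (0.042). The promoter of SP5 is shown as that of a direct Wnt target with a match to CTTTGAT, the letters bound by TCF and LEF factors, on the plus strand at chr2:170715087-170715386 with the match in capitals.
SP5: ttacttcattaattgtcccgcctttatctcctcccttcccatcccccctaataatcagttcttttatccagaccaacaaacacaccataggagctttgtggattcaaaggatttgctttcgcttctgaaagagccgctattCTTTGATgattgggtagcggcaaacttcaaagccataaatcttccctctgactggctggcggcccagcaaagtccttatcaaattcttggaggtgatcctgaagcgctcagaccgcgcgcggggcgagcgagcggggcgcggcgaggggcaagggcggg
The window held 1 match, the only one among the 12 members of the Wnt list with a RefSeq promoter (8.33%). CTTTGAT on either strand was found in 1.41% of the windows of all tested genes and 2.64% of all windows. SP5 had 154, 159, 163 and 164 CPM in the 2-MiCit libraries and 141, 128, 138 and 135 CPM in the control libraries and was higher in all treated libraries, and its call was lost with the authors' factors.

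Differentiation genes of the gut epithelium rose in 7 of 22 cases and fell in 0, with a median of 0.065. The share called higher was 31.8%, against 8.1% of all tested genes. MUC1, a membrane mucin, had 12.8, 12, 12.4 and 12.5 CPM in the 2-MiCit libraries and 8.8, 7.78, 10.4 and 9.74 CPM in the control libraries (log2 fold change 0.44 ± 0.079, edgeR adjusted p = 0.00148). CDH17, the liver-intestine cadherin, had 55.6, 55.4, 55.4 and 57.3 CPM in the 2-MiCit libraries and 48.3, 48.6, 50.1 and 47.5 CPM in the control libraries (log2 fold change 0.20 ± 0.03, edgeR adjusted p = 0.00035). VIL1, villin of the brush border, rose (0.13 ± 0.025), and CEACAM5, the carcinoembryonic antigen whose family members share sequence (0.37 ± 0.11). The master regulators CDX2 and HNF4A and the keratin gene KRT20 did not pass (0.066, 0.034 and -0.14). The calls of MUC1, VIL1 and CEACAM5 were lost with the authors' factors, with which 2 members were called higher, and that of CEACAM5 without any of 5 single libraries. In the fit over the 3 lines 4 members were called higher.

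FOXO factors are held out of the nucleus by insulin and AKT signalling, and their targets mark growth restraint. Of 29 tested FOXO and growth-arrest genes 11 rose and 1 fell, with a median of 0.12. These are 37.9% and 3.45% of the list, against 8.1% and 10.8% of all tested genes. YPEL3 had 17.3, 17.9, 16.1 and 18.1 CPM in the 2-MiCit libraries and 14.7, 13.2, 14.5 and 13.3 CPM in the control libraries (log2 fold change 0.32 ± 0.054, edgeR adjusted p = 0.000908). FOXO4, itself a FOXO factor, had 12.9, 12.4, 12.4 and 12.1 CPM in the 2-MiCit libraries and 10.4, 9.85, 9.35 and 9.46 CPM in the control libraries (log2 fold change 0.35 ± 0.058, edgeR adjusted p = 0.000799). No treated library overlapped a control for these genes. ERBB3, a receptor that FOXO factors induce, rose (0.17 ± 0.025) and the mitophagy kinase PINK1 (0.18 ± 0.034). CITED2 was the member that fell (-0.33 ± 0.066). FOXO3 did not pass (0.07). With the authors' factors and in the fit over the 3 lines 5 members were called higher, and 7 without 2-MiCit library 2 or without control library 4. The calls of FOXO4 and CITED2 were lost with the authors' factors and that of PINK1 in the fit over the 3 lines.

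Export pumps and drug metabolism genes rose in 7 of 21 cases and fell in 1, with a median of 0.16. These are 33.3% and 4.76% of the list, against 8.1% and 10.8% of all tested genes. ABCC3, a multidrug resistance protein of the basolateral membrane, had 101, 96.5, 93.2 and 101 CPM in the 2-MiCit libraries and 82.4, 86.1, 85.4 and 85.5 CPM in the control libraries (log2 fold change 0.21 ± 0.03, edgeR adjusted p = 0.000321). ABCB1, P-glycoprotein, had 20.6, 20.0, 18.4 and 20.1 CPM in the 2-MiCit libraries and 15.7, 17.5, 15.3 and 15.7 CPM in the control libraries (log2 fold change 0.30 ± 0.053, edgeR adjusted p = 0.00121). ABCC2, an apical pump, had 3.27, 3.07, 3.56 and 4.42 CPM in the 2-MiCit libraries and 2.49, 2.55, 1.91 and 2.6 CPM in the control libraries (log2 fold change 0.58 ± 0.14, edgeR adjusted p = 0.00917). Treated libraries were higher than controls for each, ABCC2 at a low level. ABCC4 fell (-0.18 ± 0.041). ABCC1 and ABCG2 did not pass (-0.072 and 0.62). The calls of ABCB1 and ABCC2 were lost with the authors' factors and in the fit shared with the other lines as well, and 2 members of the list were called higher under each.

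Targets of the oxidative stress factor NRF2 were called in both directions, with the share called lower below that of all genes. Of 23 tested members 5 rose and 2 fell, 21.7% and 8.7% against 8.1% and 10.8% of all tested genes. The rises included AKR1C3, the first by test, and NQO1, the standard NRF2 target (0.074 ± 0.023). HMOX1 and SRXN1, further standard targets, did not pass (0.10 and -0.054), and TXNRD1 fell (-0.12 ± 0.023). GPX2, a gut glutathione peroxidase, rose with 167, 157, 162 and 171 CPM in the 2-MiCit libraries and 109, 111, 115 and 124 CPM in the control libraries (log2 fold change 0.52 ± 0.041, edgeR adjusted p = 1.88e-05). The treated libraries of GPX2 were all far above the controls. The call of NQO1 was lost in 8 of the 18 alternatives, 6 of them single libraries, and that of TXNRD1 in the fit over the 3 lines. In that fit, as with the authors' factors, 2 members were called higher.

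Stress programs showed no common direction. Of 20 ATF4 and CHOP effectors 4 rose and 3 fell, 20% and 15% against 8.1% and 10.8% of all tested genes. KLHL24 had 36.9, 36.5, 34.1 and 36.9 CPM in the 2-MiCit libraries and 26.7, 28.6, 26.3 and 27.9 CPM in the control libraries (log2 fold change 0.40 ± 0.041, edgeR adjusted p = 2.03e-05), and the stress cytokine GDF15 rose (0.21 ± 0.028), whereas STC2 fell (-0.25 ± 0.025). DDIT3, TRIB3 and CHAC1 did not pass (-0.051, -0.055 and -0.037). Of 16 amino acid synthesis genes 3 rose and 1 fell (18.8% and 6.25%), with glutamine synthetase GLUL among the rises (0.25 ± 0.03). ASNS did not pass (-0.0075), and the large neutral amino acid carrier SLC7A5 fell (-0.21 ± 0.025). The call of GDF15 was lost in the fit over the 3 lines, in which 2 ATF4 and CHOP effectors were called higher.

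Among p53 targets 4 of 27 rose and 4 fell, 14.8% each way against 8.1% and 10.8% of all tested genes. MDM2 did not pass (0.052). Among BCL2 family genes 3 of 14 rose and 5 fell (21.4% and 35.7%). The proapoptotic genes BMF (0.46 ± 0.089) and BBC3 (0.24 ± 0.048) rose, and BAX, also proapoptotic, fell (-0.099 ± 0.028). The call of BAX was lost in 7 of the 18 alternatives, 4 of them single libraries, and that of BMF with the authors' factors. BCL2 family genes called lower numbered 1 with library totals alone, between 1 and 5 without single libraries, and 0 in edgeR with the authors' factors or over the 3 lines. Interferon-stimulated genes were called in 2 of 26 cases, NF-kappaB targets in 2 of 18 and hypoxia targets in 2 of 17, each a smaller share than the 18.9% of all tested genes called in either direction. Of 13 iron genes 2 rose and 2 fell (15.4% each way), ferroportin SLC40A1 higher (0.43 ± 0.08) and the transferrin receptor TFRC lower (-0.19 ± 0.026). Of 12 metallothionein and zinc transporter genes 1 rose and 2 fell (8.33% and 16.7%). Splicing factors fell in 13 of 30 cases (43.3%) and rose in 0. Keratin and desmosome genes rose in 3 and fell in 3 of 18, and lysosome and autophagy genes rose in 2 and fell in 2 of 28. Polyadenylated histone genes rose in 4 and fell in 3 of 17 (23.5% and 17.6%). Fatty acid synthesis genes rose in 3 and fell in 2 of 16 (18.8% and 12.5%). Glucose handling genes rose in 1 and fell in 2 of 9 (11.1% and 22.2%), and amino acid transporters rose in 4 and fell in 3 of 16 (25% and 18.8%). Of the keratin list 16.7% were called in each direction and of the lysosome list 7.14%, against 8.1% of all tested genes called higher and 10.8% called lower, so that the lysosome shares did not exceed those of all genes. In the fit over the 3 lines 7 splicing factors were called lower, 2 p53 targets were called in each direction, and 2 histone genes and 1 amino acid transporter were called higher.

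HT29 and SW1417, the other colorectal cancer lines counted in the same table, each with 4 libraries at 10 mM 2-MiCit and 4 controls, allow a test of whether the effect differs by line. The effect of 2-MiCit was more positive in SK-CO-1 than in HT29 for 271 of 16090 genes and more negative for 395, 1.68% and 2.45%, together 4.14%. Compared with SW1417 it was more positive for 93 genes and more negative for 72, 0.578% and 0.447%, together 1.03%. In fits of each line alone, HT29 had 4.65% of its tested genes called higher with 2-MiCit and 3.02% lower, together 7.67%, and SW1417 had 2.94% higher and 4.05% lower, together 6.98%. Without 1 SK-CO-1 library the counts could fall further: to 176 and 168 more positive than in HT29 without 2-MiCit library 2 and control library 3, to 58 and 60 more positive than in SW1417 without 2-MiCit library 4 and control library 3, and to between 27 and 47 more negative than in SW1417 without 2-MiCit library 1, 2 or 4 or any of the control libraries. Several lists held genes whose effect differed. Of the mitosis list, 12 genes had a more positive effect in SK-CO-1 than in HT29 and 0 a more negative one: the median log2 fold change was -0.11 in SK-CO-1 and -0.24 in HT29. Of the cholesterol list, 5 genes had a more negative effect in SK-CO-1 than in HT29 and 0 a more positive one, with medians of 0.092 in SK-CO-1 and 0.29 in HT29. Of the YAP list, 4 were more negative and 0 more positive than in HT29. Its median was -0.20 over the 21 members tested in SK-CO-1 alone and 0.015 over the 16 tested in HT29 alone. Of the ribosome biogenesis list 5 were more negative and 0 more positive than in SW1417, with medians of -0.15 in SK-CO-1 and -0.013 in SW1417.

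NT5E differed from both other lines. It fell in SK-CO-1 as given above, but averaged 143 ± 4.3 CPM with 2-MiCit and 120.0 ± 3.22 CPM in controls in HT29 (own log2 fold change 0.25 ± 0.036) and 107 ± 2.34 CPM with 2-MiCit and 98.3 ± 6.21 CPM in controls in SW1417 (0.12 ± 0.039). Its effect was more negative than in HT29 (difference in log2 fold change -0.71 ± 0.065, edgeR interaction adjusted p = 5.22e-07) and than in SW1417 (difference in log2 fold change -0.59 ± 0.065, edgeR interaction adjusted p = 2.35e-05). CCN2 averaged 18.4 ± 2.07 CPM with 2-MiCit and 11.3 ± 1.48 CPM in controls in HT29, where its own log2 fold change was 0.71 ± 0.11 (difference in log2 fold change -0.93 ± 0.11, edgeR interaction adjusted p = 4.68e-05). The vasoconstrictor gene EDN1 fell in SK-CO-1 (-0.31 ± 0.041), while in HT29 it rose (0.43 ± 0.052; difference in log2 fold change -0.75 ± 0.091, edgeR interaction adjusted p = 2.88e-05). Choline kinase CHKA fell (-0.20 ± 0.034) in SK-CO-1 against a rise of 0.29 ± 0.056 in HT29 (difference in log2 fold change -0.50 ± 0.061, edgeR interaction adjusted p = 2.88e-05). These genes were lower with 2-MiCit in SK-CO-1 and higher in HT29.

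Other genes went up in SK-CO-1 and down in HT29. The spindle orientation gene GPSM2 rose (0.16 ± 0.023) in SK-CO-1 against -0.24 ± 0.034 in HT29 (difference in log2 fold change 0.39 ± 0.038, edgeR interaction adjusted p = 1.25e-06). GTF2IRD1, a transcription factor, rose (0.22 ± 0.028) against -0.32 ± 0.065 in HT29 (difference in log2 fold change 0.54 ± 0.066, edgeR interaction adjusted p = 3.01e-05). PYCR1, of proline synthesis, rose (0.14 ± 0.021) against -0.16 ± 0.035 in HT29 (difference in log2 fold change 0.30 ± 0.036, edgeR interaction adjusted p = 2.34e-05). TXNIP, which restrains glucose uptake, rose in SK-CO-1 (0.24 ± 0.023) but much more in HT29, by 1.30 ± 0.12 (difference in log2 fold change -1.07 ± 0.11, edgeR interaction adjusted p = 1.13e-05). Its SK-CO-1 call was lost in the fit over the 3 lines.

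Against SW1417, GPX2 rose in SK-CO-1 as above while its log2 fold change in SW1417 was 0.061 ± 0.022 (difference in log2 fold change 0.44 ± 0.06, edgeR interaction adjusted p = 0.000287). PARM1 had a log2 fold change of 0.061 ± 0.027 in SW1417 (difference in log2 fold change 0.47 ± 0.05, edgeR interaction adjusted p = 2.35e-05). For CLIC3 it was -0.51 ± 0.15 (difference in log2 fold change 1.15 ± 0.15, edgeR interaction adjusted p = 0.000148). PRR15L rose (0.51 ± 0.076) in SK-CO-1 against -0.15 ± 0.03 in SW1417 (difference in log2 fold change 0.65 ± 0.08, edgeR interaction adjusted p = 9.82e-05). The hydrolase gene ABHD2 rose (0.24 ± 0.028) against -0.11 ± 0.021 in SW1417 (difference in log2 fold change 0.34 ± 0.041, edgeR interaction adjusted p = 9.82e-05), the sphingolipid exporter gene SPNS2 (0.23 ± 0.028) against -0.16 ± 0.055 (difference in log2 fold change 0.37 ± 0.059, edgeR interaction adjusted p = 0.00211), and DPYSL3, of cytoskeletal remodelling (0.29 ± 0.028) against -0.097 ± 0.028 (difference in log2 fold change 0.37 ± 0.056, edgeR interaction adjusted p = 0.00129). Each of these rises was thus larger in SK-CO-1 by the test of the difference, and the SK-CO-1 call of ABHD2 was lost with the authors' factors. SLC5A1, among the strongest rises here, also rose more than in HT29 (difference in log2 fold change 0.44 ± 0.076, edgeR interaction adjusted p = 0.00179) and SW1417 (difference in log2 fold change 0.42 ± 0.075, edgeR interaction adjusted p = 0.00606).

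**Figure D5:**
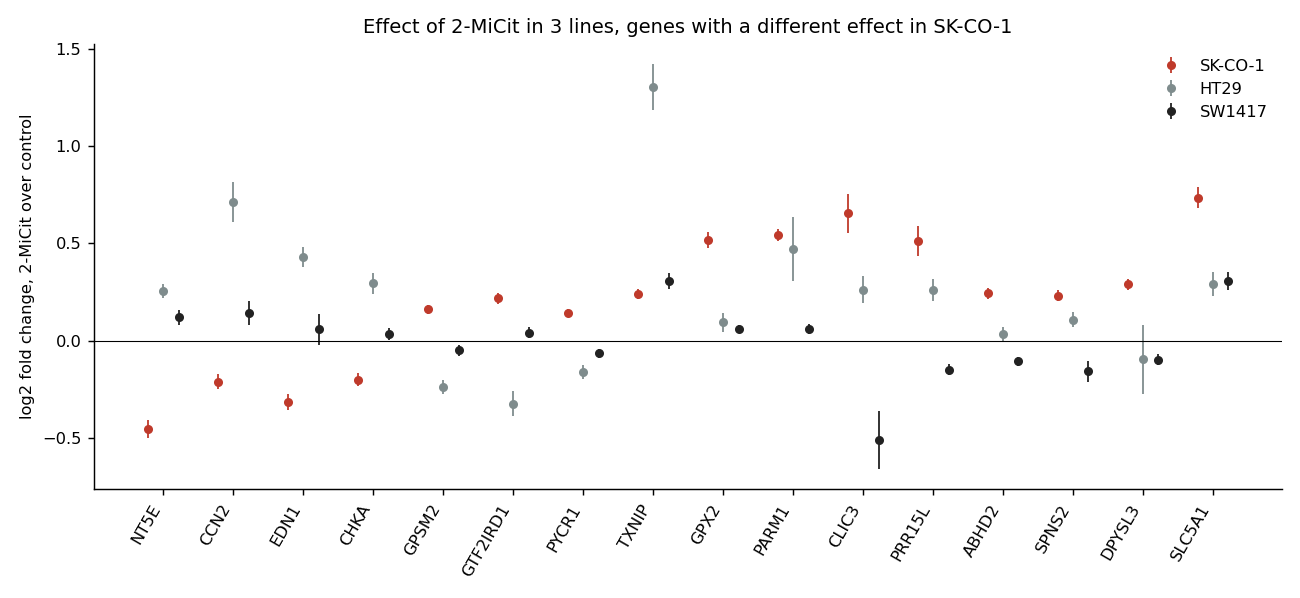
Log2 fold change of 2-MiCit over control (vertical, bars are 1 standard error) of the genes named for a different effect, in SK-CO-1, HT29 and SW1417 (left to right within each gene), each from the fit of that line alone. NT5E, EDN1, CCN2 and CHKA lie below zero in SK-CO-1 and above it in HT29, and GPSM2, GTF2IRD1 and PYCR1 the other way round.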

How the data were processed

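RNA from SK-CO-1 was sequenced after stranded mRNA library preparation, per the labels' protocols. The submitters' processing notes name bcl2fastq 2.20.0, Trimmomatic 0.39, Salmon 1.5.0, DESeq2 and the genome build GRCh38.p13, without parameters. The authors deposited a table of read counts per gene for 24 libraries of 3 lines, and these counts were tested as deposited. Salmon apportions reads that fit several transcripts, so near-identical genes are uncertain. The authors also deposited a table of normalised signal values for the same libraries. Counts divided by normalised signal gave a factor that was not constant across the genes of a library: the 99th percentile of the factor over the 1st was between 2.37 and 2.50 in SK-CO-1. No source here states how it was made. These factors served as an alternative scaling.

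Of 16454 gene IDs, 15268 matched a GENCODE 29 record and 15328 got a symbol. The 1126 without one held between 3.31% and 3.37% of a library's counts. Of 1232 entries in 50 gene lists and 5 marker lists, 1155 matched an ID in the table. No 2 libraries of a group agreed within sampling noise (chi-square per degree of freedom between 3.84 and 11.2).

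Genes were kept by filterByExpr (minimum count 10), scaled with TMM factors and tested with the quasi-likelihood F test of edgeR 4.0.16 in R 4.3.3, on the 8 SK-CO-1 libraries without covariates. Genes below 0.05 after Benjamini-Hochberg adjustment over all genes tested are called. CPM values use the TMM factors. Effects were compared between lines by the treatment-by-line interaction in 1 fit of all 24 libraries. The fits were tested on simulated data first. Of simulated 1.2-fold changes in SK-CO-1, 46% were called, and of 1.5-fold changes 86%. As differences from HT29 and SW1417, 15% and 18% of the 1.2-fold changes were called. False calls were 7 of 142 in SK-CO-1, 12 of 99 for HT29 and 7 of 100 for SW1417. A small change or difference can thus go uncalled. Alternatives were other scalings, filters and fits (a stricter filter asked for 50 counts in 4 libraries), DESeq2 1.42.0, a replicate block, removal of a length trend, and leaving out each library.

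Genes to be named were the 14 largest called changes in each direction with at least 5 CPM and no overlap between groups, the 8 smallest p-values in each direction, up to 4 called members of a list in its main direction and 2 in the other, every member of the citrate, propionate and pyrimidine lists, and 8 genes per line by interaction p. The genes ranked by interaction p had to be called in SK-CO-1 and reach 5 CPM in an SK-CO-1 group. Genes that changed only in HT29 or SW1417 could therefore not be named by it. A few genes that meet this rule are not reported here. Another 43 of the 222 genes named lie outside this rule and were chosen after their values were seen. They are 28 that did not pass the test and the 15 called genes ACTB, AXIN2, CD68, CEACAM5, DKK1, FN1, FOS, JUN, LEF1, MYC, RNF43, SNAI2, TGFBI, VIM and ZNRF3. The comparison and the lists were chosen with earlier results of these data known.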

Additional observations from a re-analysis of the deposited data

Results flagged for a closer look

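In 9 of 138 groups of 4 libraries examined, 1 library stood apart: its gap to the nearest other library, as a share of the group's range, exceeded Dixon's 95% critical value. Chance does this in about 1 in 20 groups. Of the 9, 8 were in 2-MiCit libraries and 1 in control libraries, and 2-MiCit library 4 was the one that stood apart for PARM1 (gap ratio 0.971), APCDD1 (0.864) and CDH17 (0.892), each time as the highest. 2-MiCit library 1 was the lowest for CCND1 (0.917) and the highest for SLC13A5 (0.883). 2-MiCit library 3 was the highest for TYMS (0.898) and the lowest for KLHL24 (0.831), and 2-MiCit library 2 was the highest for CDC6 (0.849). Control library 3 was the lowest for ABCC2 (0.843). For SLC13A5 the library that stood apart had 0.999 CPM beside 0.423 to 0.491 CPM in the other 2-MiCit libraries.

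Among the effects that differed between lines, by the interaction test, were those of the named genes given here. The difference in log2 fold change, SK-CO-1 minus HT29, was -0.71 for NT5E, -0.93 for CCN2, -0.75 for EDN1, -0.50 for CHKA, -1.07 for TXNIP, 0.39 for GPSM2, 0.54 for GTF2IRD1, 0.30 for PYCR1 and 0.44 for SLC5A1. SK-CO-1 minus SW1417, it was -0.59 for NT5E, 0.44 for GPX2, 0.47 for PARM1, 1.15 for CLIC3, 0.65 for PRR15L, 0.34 for ABHD2, 0.37 for SPNS2, 0.37 for DPYSL3 and 0.42 for SLC5A1. What sets these lines apart was not tested.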

How the results depend on the processing

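The main counts were 1187 higher and 1589 lower. They became 626 and 1010 in 1 fit over 3 lines, 430 and 767 with the authors' factors, 1739 and 992 with library totals alone, 1322 and 1853 with a replicate block, and between 873 and 1264 higher and between 1147 and 1730 lower without single libraries. With the authors' factors 1110 of the 2776 genes were called again, 1 of them in the opposite direction. The 76 rises over 1.5-fold became 42 with the stricter filter, 43 with DESeq2 and between 57 and 96 without single libraries. The 7 falls over 1.5-fold became 4 with totals alone, 13 with no filter, 3 with the stricter filter and between 4 and 14 without single libraries. More positive than in HT29 were 98 genes with the authors' factors, 449 with the block and between 168 and 251 without single libraries. More negative than in HT29 were 150, 660 and between 267 and 392, and 635 with DESeq2. More positive than in SW1417 were 29 with the authors' factors, 165 with the block, 193 with DESeq2 and between 58 and 90 without single libraries. More negative than in SW1417 were 10, 201, 191 and between 27 and 95, and 35 with totals alone.

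Whether equal replicate numbers mark paired libraries is not stated in the labels, and the main fit treated the libraries as unpaired. Same-numbered deviations correlated at 0.029, 0.127, 0.111 and 0.0919. Of the 2-MiCit libraries, 2, 3 and 4 but not 1 correlated best with the control of their number. These correlations are all positive but small and do not settle the pairing. With the block, 10 mitochondrially encoded genes were called higher.

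Of 172 called genes named, 113 kept their call in every alternative run. Signs turned for the genes given next, of which ETV5 and PDE1C had been called. With totals alone the log2 fold change was 0.021 for ASNS, 0.0041 for HSPA5, 0.019 for PCCB, 0.017 for SLC25A10, 0.014 for SLC25A11, 0.016 for SLC29A1 and 0.022 for SLC2A1. With the authors' factors it was 0.023 for CAD, -0.036 for ETV5, -0.11 for PCCA and 0.024 for PDE1C, and list medians turned to -0.00094 for p53 targets, -0.0057 for ATF4 and CHOP effectors, -0.012 for amino acid synthesis, -0.011 for amino acid transporters, -0.010 for hypoxia targets, -0.011 for NRF2 targets, -0.0019 for lysosome genes, -0.026 for histone genes, 0.0093 for glucose handling and 0.011 for iron genes. With totals alone they turned to 0.0049 for endoplasmic reticulum, 0.026 for glucose handling, 0.00047 for metallothionein, 0.0082 for iron and 0.010 for NF-kappaB genes. The stricter filter gave 0.00035 for ASNS and 0.0010 for SLC2A1. IDH2 stood at -0.0047 in the fit over 3 lines, and with the length trend removed IDH2 stood at -0.0040 (-0.0039 with the block) and SLC2A1 at 0.0028 (0.0025 with the block). Without single libraries ASNS ranged from -0.036 to 0.016, IDH2 from -0.019 to 0.032, PCCB from -0.038 to 0.0046, SLC25A10 from -0.038 to 0.013, SLC25A11 from -0.034 to 0.00093, SLC29A1 from -0.027 to 0.017, SLC2A1 from -0.026 to 0.0079 and TYMP from -0.040 to 0.085. The causes were not tested. A gene that did not pass may still have changed by less than the spread between libraries lets the test detect, above all at low counts.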
